A study of Mus musculus with 9 samples.

Results

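The genes described here are those of the injected factor and of the pathway it is reported to use, in regenerating mouse muscle. They are 6 of the 54532 genes in the count table, chosen by name, though with earlier results of these data known. Metrnl codes for the secreted protein meteorin-like, and Metrn (meteorin) is its relative. Kit and Kitl code for the receptor KIT and its ligand stem cell factor, Stat3 for a transcription factor, and Socs3 for an inhibitor of the same signal. Each was found by 1 Ensembl identifier, and all 6 passed edgeR's filter on low counts in every comparison. C57/BL6J mice of 4 months (young) or 24 months (old) had the tibialis anterior muscle injured with barium chloride, which destroys muscle fibres and starts regeneration, so all groups were injured. Young PBS (3 libraries) and old PBS (3 libraries) received 3 injections of saline and old rMETRNL (3 libraries) received 3 injections of recombinant METRNL protein (0.1 ug or 0.1 ng, since the 2 descriptions of the dose differ). The sources differ on the harvest, which was of cells in suspension by the labels and of whole muscle by the methods. Harvest was at day 4 after injury in one description and at day 8 in another. Neither source says whether each library is 1 mouse, so p-values measure the spread between these libraries.

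METRNL is a secreted protein made by macrophages and other cells, and it has been linked to immune responses in adipose tissue and muscle. KIT is a receptor tyrosine kinase known from mast cells, melanocytes and blood progenitors, and KITL is the ligand that activates it. STAT3 carries signals from cytokine receptors, above all those that use the shared subunit gp130, into the nucleus after a JAK kinase phosphorylates it, and SOCS3 is one of its best known targets and shuts the receptor off again. Phosphorylation is not seen in RNA, so the values below are transcript levels and not activity. The injected protein carries no Metrnl RNA.

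The regulatory sequence that bears most directly on this circuit is that of Socs3, because STAT proteins bind the letters TTCNNNGAA. The motif reads the same on both strands, so 1 search covered both. In the 250 bases before the RefSeq start of each gene (GRCm38.p6), 7.02% of 32851 windows held it. Socs3 was the only one of the 6 genes with a match, and its first base lay 154 bases before the start, within chr11:117969367-117969616 on the minus strand. Capitals mark the match. Metrnl, whose level resembled that of Socs3 most closely of the 6, had none in chr11:121702177-121702426 on the plus strand, of which the first 234 bases, to 121702410, are shown because the other 16 are annotated as UTR.
Socs3: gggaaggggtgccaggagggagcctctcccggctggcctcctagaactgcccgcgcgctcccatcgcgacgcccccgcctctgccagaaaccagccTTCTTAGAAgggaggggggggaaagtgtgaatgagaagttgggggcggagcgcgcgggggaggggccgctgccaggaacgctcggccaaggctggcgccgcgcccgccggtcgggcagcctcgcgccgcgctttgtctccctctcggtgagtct
Metrnl: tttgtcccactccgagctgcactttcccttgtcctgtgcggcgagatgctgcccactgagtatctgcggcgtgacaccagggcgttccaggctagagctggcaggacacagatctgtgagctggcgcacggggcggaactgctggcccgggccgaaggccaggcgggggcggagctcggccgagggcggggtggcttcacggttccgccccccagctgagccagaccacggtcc
A match is a string of letters and not a measured binding site, and its absence from this window says only that these letters are not there. Both windows lie inside the spans of these genes in the annotation used for the coordinates below. Those spans begin further upstream than the RefSeq starts, and the bases before them were not searched.

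The 9 libraries held 16238700 to 22522560 counts, and a count of 3, taken as the floor, was worth 0.133 to 0.185 CPM (counts relative to the library's total, scaled with TMM factors). The spread between replicates exceeded sampling noise in every group (chi-square per degree of freedom 11.9 to 188), and was widest between old PBS 3 and old PBS 4. Skeletal muscle fibre markers summed to 83513 to 144916 CPM. Which of the described harvests these libraries come from was not tested. The old PBS libraries stood apart in some markers of other tissues. Counts of Mobp, a myelin gene, were 470, 262 and 665 in the old PBS libraries and 0 in all others. Those of Snap25, another gene of the brain list, were 221, 125 and 406 against 0. Of the 8 brain list genes tested between old PBS and young PBS, 6 had fold changes above 0 and 2 below. The sum of the brain list overlapped between groups. It was 254 to 506 CPM in old PBS, 271 to 358 in young PBS and 280 to 336 in old rMETRNL. The liver list summed to 12.5 to 85.3 CPM in old PBS and 2.26 to 6.35 CPM elsewhere. Old PBS 3 had the highest sum of new muscle fibre and satellite cell markers, at 3234 CPM against 244 to 1309 CPM in the others. Every comparison with old PBS holds these libraries, and the part these differences play in the values of the 6 genes was not tested.

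Per length of exon, Metrnl was the most abundant of the 6, with a mean of 15.5 FPKM over the 9 libraries (range 9.84 to 20.2). Stat3 followed at 10.4 FPKM (7.18 to 13.0), Kitl at 7.0 FPKM (5.66 to 8.60) and Socs3 at 5.55 FPKM (3.03 to 7.71). Kit at 0.868 FPKM (0.678 to 1.16) and Metrn at 0.672 FPKM (0.347 to 1.32) were much lower. Neighbours in this order overlapped in range, except Socs3 and Kit, whose ranges were apart. The longest coding transcript of each gene in place of all its exons gave the same order, from 17.6 FPKM for Metrnl to 0.922 FPKM for Metrn.

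Metrnl lies at chr11:121701544-121716306 on the plus strand (ENSMUSG00000039208; GRCm38). It stood at 28.9, 26.0 and 24.2 CPM in young PBS 1, 2 and 3, at 15.6, 20.3 and 21.6 CPM in old PBS 2, 3 and 4, and at 32.0, 28.1 and 24.7 CPM in old rMETRNL 1, 2 and 3. The 3 old PBS libraries were the lowest of the 9, below every library of either other group. Among the 16124 genes kept over the 3 groups, 3.09% were likewise lower in old PBS than in all the other 6 libraries. The means were 26.4 ± 2.40 CPM in young PBS, 19.2 ± 3.14 in old PBS and 28.3 ± 3.63 in old rMETRNL (SD, n = 3 each). Metrnl did not pass the threshold in any comparison. Between old PBS and young PBS the log2 fold change was -0.46 (SE 0.17, 95% interval -0.86 to -0.063; edgeR adjusted p = 0.738). Between old rMETRNL and old PBS, which share the same old PBS libraries, it was 0.56 (SE 0.18, interval 0.14 to 0.97; edgeR adjusted p = 0.451). Old rMETRNL and young PBS differed by 0.099 (SE 0.13, interval -0.18 to 0.38; edgeR adjusted p = 1.0). Unadjusted, edgeR's p for Metrnl was under 0.05 in both comparisons with old PBS. The same held in the same direction for 2.42% of all genes between old PBS and young PBS and for 3.51% between old rMETRNL and old PBS. Groups that did not overlap in the same directions were seen in 5.25% and 6.99% of genes.

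**Figure D1:**
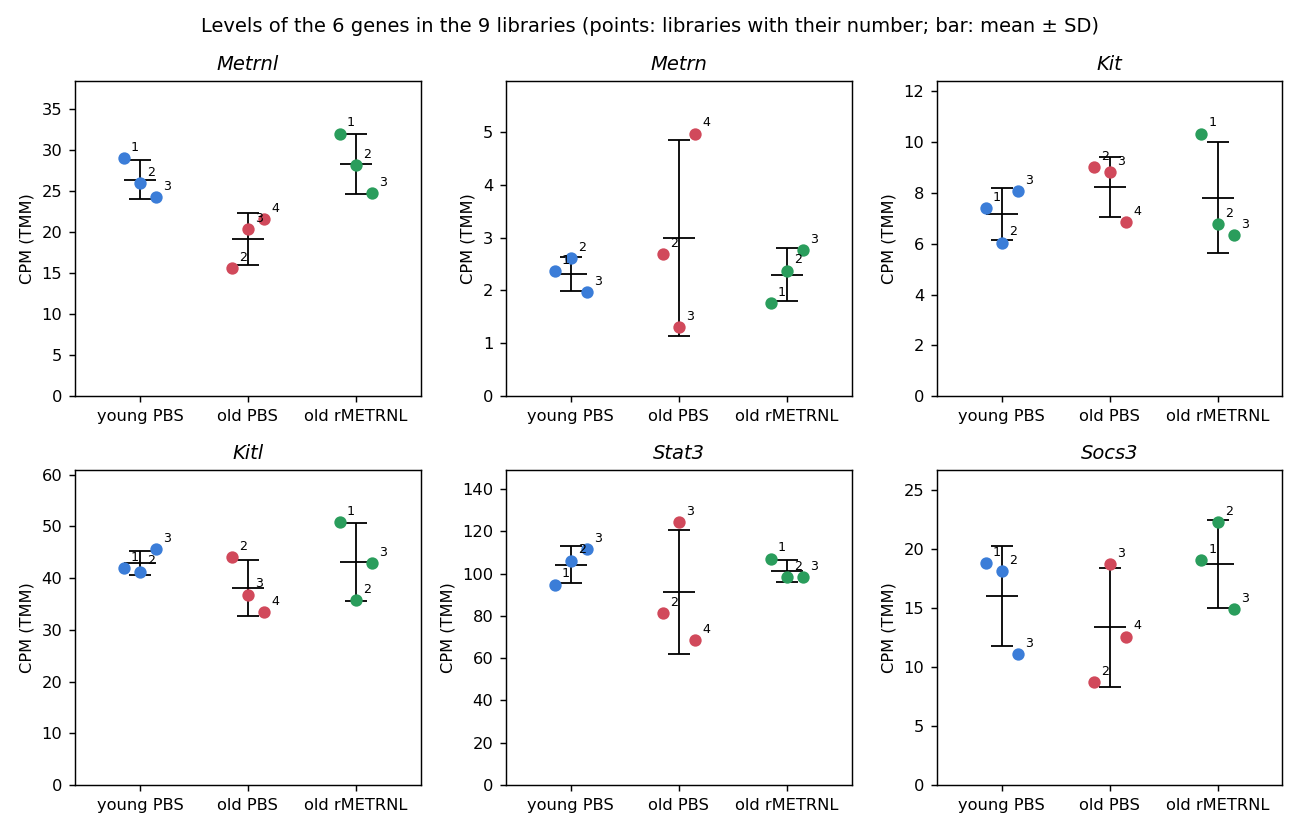
Level of each of the 6 genes in CPM (vertical axis, linear from 0) in the 3 groups, each point a library with its number and the bars the mean ± SD. Metrnl is lowest in the 3 old PBS libraries (15.6 to 21.6 CPM), as are 3.09% of the 16124 genes kept. Stat3 and Socs3 are spread widely within old PBS.

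Several marker lists had median fold changes below 0 between old PBS and young PBS, as Metrnl did, among them macrophages, fibro-adipogenic progenitors and endothelium. The 14 macrophage markers, which include Adgre1, Csf1r and Cd68, summed to 2143 to 2553 CPM in young PBS, to 1500, 2356 and 1695 CPM in old PBS 2, 3 and 4 and to 2334 to 2669 CPM in old rMETRNL. No marker of the list was at 0. Their log2 fold changes between old rMETRNL and old PBS were above 0 for all 14 (median 0.33), and those between old PBS and young PBS were below 0 for 13 (median -0.26). None passed edgeR's threshold in either comparison. Cd68, a lysosomal protein of macrophages, had the lowest p of the list in both, with log2 fold changes of -0.60 (edgeR adjusted p = 0.695) and 0.57 (edgeR adjusted p = 0.462). The 10 markers of fibro-adipogenic progenitors, the stromal cells of muscle, summed to 5578 to 8279 CPM in old PBS and to 9778 to 15626 CPM in the other 6 libraries. This sum, like Metrnl, was lower in all 3 old PBS libraries than in every other. The collagen genes Col3a1 and Col1a1 weighed most in it, with means of 5579 and 2324 CPM over the 9 libraries. Single genes of the list differed. Gsn averaged 856 CPM in young PBS and 925 in old PBS, and Dcn 718 and 774. Between old PBS and young PBS, 4 of the 10 had fold changes above 0. The log2 fold changes of this list had medians of -0.24 (6 of 10 below 0) between old PBS and young PBS and 0.49 (9 of 10 above 0) between old rMETRNL and old PBS. The 10 endothelial markers had medians of -0.30 (8 of 10 below 0) and 0.37 (8 of 10 above 0), and summed to 401 to 506 CPM in old PBS against 497 to 636 CPM elsewhere. No marker of these lists passed edgeR's threshold either. The macrophage list, by contrast, was within the young PBS range in old PBS 3. In a bulk sample, fewer cells of any of these types and less Metrnl RNA per cell cannot be told apart, and the part of each list in the level of Metrnl was not tested.

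Set against the summed marker counts of the same library, Metrnl gave 13.5, 11.6 and 9.47 counts per 1000 marker counts in young PBS 1, 2 and 3. The ratio was 10.4, 8.62 and 12.7 in old PBS 2, 3 and 4 and 13.2, 10.5 and 10.6 in old rMETRNL 1, 2 and 3. The groups overlapped on this scale, with means of 11.5 ± 2.02, 10.6 ± 2.06 and 11.4 ± 1.52 (SD, n = 3 each). The mean log2 ratio differed between old PBS and young PBS by -0.12 (two-sided exact permutation test, p = 0.7). Between old rMETRNL and old PBS it differed by 0.12 (exact permutation test, p = 0.4), and old rMETRNL and young PBS differed by -0.0031 (exact permutation test, p = 1.0). With 3 libraries against 3 this test cannot give a p under 0.1. Ratios to the other lists were not computed. Old PBS 3 had the lowest ratio of all, since its marker sum lay within the range of the young PBS libraries while its Metrnl level did not. Without it the difference between old PBS and young PBS was 0.014 and that between old rMETRNL and old PBS was -0.017.

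**Figure D2:**
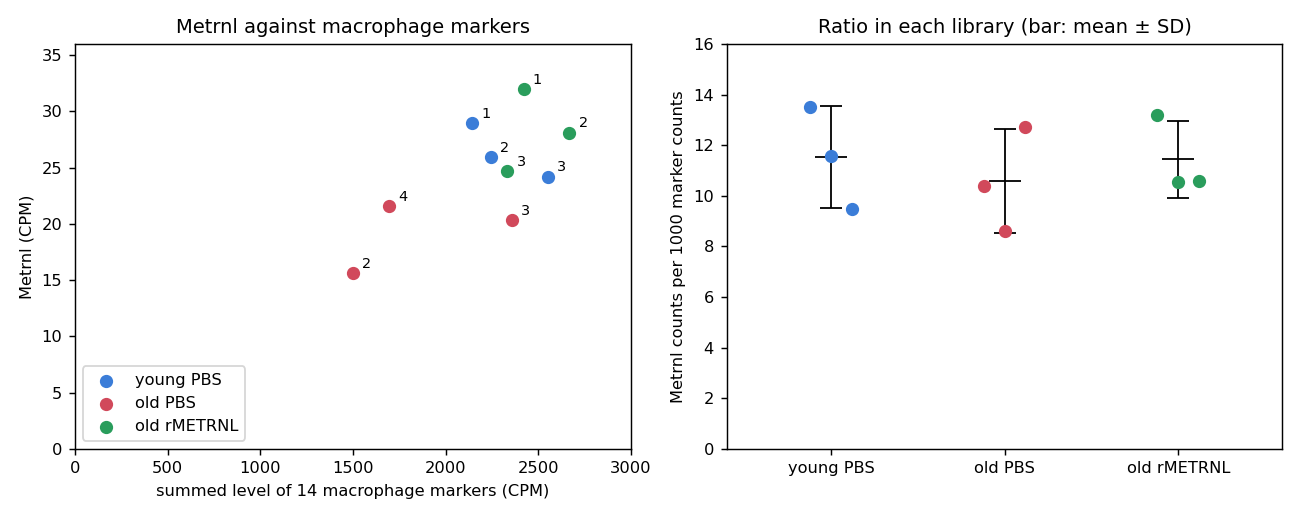
Left, Metrnl in CPM against the summed CPM of 14 macrophage markers, 1 point per library with its number. Right, Metrnl counts per 1000 macrophage marker counts by group, with mean ± SD. Old PBS 2 and 4 are low on both axes at left, and the 3 groups overlap at right (8.62 to 13.5).

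Over the 9 libraries, the genes whose log2 CPM most resembled that of Metrnl were Dok2 (Pearson r = 0.982, Spearman rho = 0.983), an adaptor protein of blood cells, Twist1 (r = 0.969, rho = 0.933), a transcription factor of mesenchymal cells, and Srm (r = 0.963, rho = 0.967), which makes spermidine. They were the first 3 of 10958 genes with a mean of at least 5 CPM. Dok2 stood at 3.90 to 7.74 CPM in old PBS and 8.18 to 14 CPM in the other 6 libraries. It was picked for its likeness to Metrnl in these libraries, so this order of groups is no separate observation. These correlations, and those below, describe 9 libraries in 3 groups that also share depth and cell makeup.

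Metrn lies at chr17:25793221-25797136 on the minus strand (ENSMUSG00000002274; GRCm38) and was the least abundant of the 6, with 30 to 79 counts per library. It measured 2.37, 2.61 and 1.97 CPM in young PBS 1, 2 and 3, 2.69, 1.31 and 4.97 CPM in old PBS 2, 3 and 4, and 1.77, 2.37 and 2.76 CPM in old rMETRNL 1, 2 and 3. Old PBS held both the lowest and the highest of the 9 values, and the other groups lay between them. The log2 fold change between old PBS and young PBS was 0.35 (SE 0.47, interval -0.71 to 1.42; edgeR adjusted p = 0.994), and that between old rMETRNL and old PBS was -0.37 (SE 0.47, interval -1.43 to 0.70; edgeR adjusted p = 0.860). Old PBS 4 decided the sign of both: without it they were -0.23 and 0.21. Both intervals were wider than those of the other 5 genes. Metrnl and Metrn transcripts shared 0 of 1583 words of 31 bases, so reads of one are not readily counted on the other. Metrn shares exon bases on its own strand with AC134908.4, a coding gene with no row in the table, and 1826 exon bases on the opposite strand with the RNA gene Gm26694, which had 2 to 12 counts. The strand setting of the counting is not given in the sources used here, so reads of these overlaps cannot be assigned with certainty.

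Kit, the receptor gene, lies at chr5:75574916-75656722 on the plus strand (ENSMUSG00000005672; GRCm38). It stood at 7.39, 6.05 and 8.06 CPM in young PBS 1, 2 and 3, at 9.02, 8.82 and 6.85 CPM in old PBS 2, 3 and 4, and at 10.3, 6.79 and 6.33 CPM in old rMETRNL 1, 2 and 3. All 3 groups overlapped, with means of 7.17 ± 1.03, 8.23 ± 1.2 and 7.82 ± 2.19 CPM (SD, n = 3 each). The log2 fold change was 0.20 (interval -0.30 to 0.70; edgeR adjusted p = 0.994) between old PBS and young PBS and -0.080 (interval -0.65 to 0.49; edgeR adjusted p = 0.955) between old rMETRNL and old PBS. Mast cell markers, the best known site of KIT, summed to 41.5 to 63.2 CPM in young PBS, 44.9 to 64.7 CPM in old PBS and 110, 52.0 and 69.3 CPM in old rMETRNL 1, 2 and 3. Old rMETRNL 1 was thus the highest library for both Kit and the mast cell list. Old PBS 2 and 3, next in Kit, had mast cell sums of 45.4 and 44.9 CPM, near the low end. Of the 8 mast cell markers tested between old rMETRNL and old PBS, 7 were higher with a list median of 0.51, and none passed edgeR's threshold. The 7 melanocyte markers, another site of KIT, summed to 21.7 to 28.6 CPM in young PBS, 19.2 to 26.4 CPM in old PBS and 22.8 to 26.1 CPM in old rMETRNL. Most of this was Mitf, which other cells express too. Pmel had 0 to 18 counts a library and Dct 0 to 6, and the pigment enzyme genes Tyr and Tyrp1 were at 0 in every library.

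Kitl lies at chr10:100015630-100100416 on the plus strand (ENSMUSG00000019966; GRCm38) and varied least of the 6, with a highest library 1.52 times the lowest. It measured 41.9, 41.3 and 45.6 CPM in young PBS 1, 2 and 3, 44.0, 36.8 and 33.5 CPM in old PBS 2, 3 and 4, and 50.8, 35.7 and 43.0 CPM in old rMETRNL 1, 2 and 3. The groups overlapped. The log2 fold change was -0.17 (interval -0.54 to 0.19; edgeR adjusted p = 0.994) between old PBS and young PBS and 0.18 (interval -0.24 to 0.60; edgeR adjusted p = 0.821) between old rMETRNL and old PBS. Old rMETRNL 1 was the highest library for this ligand as for its receptor, and Kit and Kitl correlated at r = 0.500 (rho = 0.533) over the 9 libraries.

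Stat3 lies at chr11:100885098-100939540 on the minus strand (ENSMUSG00000004040; GRCm38). It stood at 94.8, 106 and 112 CPM in young PBS 1, 2 and 3, at 81.2, 124 and 68.4 CPM in old PBS 2, 3 and 4, and at 107, 98.3 and 98.2 CPM in old rMETRNL 1, 2 and 3. Old PBS 3 was the highest of the 9 libraries and old PBS 2 and 4 were the lowest, so the group enclosed both others. Old PBS averaged 91.3 ± 29.3 CPM, young PBS 104 ± 8.63 CPM and old rMETRNL 101 ± 5.07 CPM (SD, n = 3 each). The log2 fold change was -0.19 (interval -0.73 to 0.35; edgeR adjusted p = 0.994) between old PBS and young PBS and 0.14 (interval -0.38 to 0.67; edgeR adjusted p = 0.889) between old rMETRNL and old PBS. Without old PBS 3 these values were -0.48 (edgeR adjusted p = 0.145) and 0.44 (edgeR adjusted p = 0.112), and without old PBS 4 the second was -0.039. Without old PBS 3, 2.52% and 9.76% of all genes passed the threshold in these comparisons, and Stat3 did not. The library with most Stat3 was also the one with most new muscle fibre markers and least mature fibre markers, at 83513 CPM. The genes most like Stat3 were Peg10 (r = 0.982, rho = 0.950), an imprinted gene, the kinase gene Src (r = 0.982, rho = 0.933) and Gm16008 (r = 0.980, rho = 0.983). Peg10, picked for this likeness, had its highest level, 29.0 CPM, in old PBS 3 and its lowest, 4.91 CPM, in old PBS 4. Metrn ran opposite to Stat3 (r = -0.910, rho = -0.833). Stat3 and Stat5a, on opposite strands, share 72 exon bases of the 9527 of Stat3.

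Socs3 lies at chr11:117966079-117970047 on the minus strand (ENSMUSG00000053113; GRCm38). It measured 18.8, 18.1 and 11.1 CPM in young PBS 1, 2 and 3, 8.75, 18.7 and 12.6 CPM in old PBS 2, 3 and 4, and 19.1, 22.3 and 14.9 CPM in old rMETRNL 1, 2 and 3. The 2 highest libraries were of old rMETRNL and the lowest was old PBS 2, but the groups overlapped. The log2 fold change between old rMETRNL and old PBS was 0.48 (SE 0.28, interval -0.17 to 1.12; edgeR adjusted p = 0.705). Without old PBS 3 it was 0.81 (edgeR adjusted p = 0.0591), the lowest adjusted p of any of the 6 genes when 1 library was left out. In that setting 9.76% of all genes passed the threshold, and Socs3 did not. Between old PBS and young PBS it was -0.26 (SE 0.31, interval -0.97 to 0.45; edgeR adjusted p = 0.994). Socs3 followed Metrnl (r = 0.750, rho = 0.767) more closely than its regulator Stat3 (r = 0.478, rho = 0.300). The genes most like it were Hmgn1 (r = 0.961, rho = 0.950), which codes for a chromatin protein, Rasgrp4 (r = 0.947, rho = 0.983), known from mast cells, and the transcription factor gene Maz (r = 0.947, rho = 0.800).

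Thus edgeR called 0 of the 6 genes in each of the 3 comparisons, and so did DESeq2. Over all genes edgeR called 0.0643% between old PBS and young PBS, 0.108% between old rMETRNL and old PBS and 0 of 15396 between old rMETRNL and young PBS. At an unadjusted p under 0.05, edgeR passed 1 of the 6 (Metrnl) in each comparison with old PBS and 0 between old rMETRNL and young PBS, where the log2 fold changes of the 6 ran from -0.043 to 0.22. That level was reached by 5.91%, 8.07% and 2.41% of all genes in these comparisons.

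**Figure D3:**
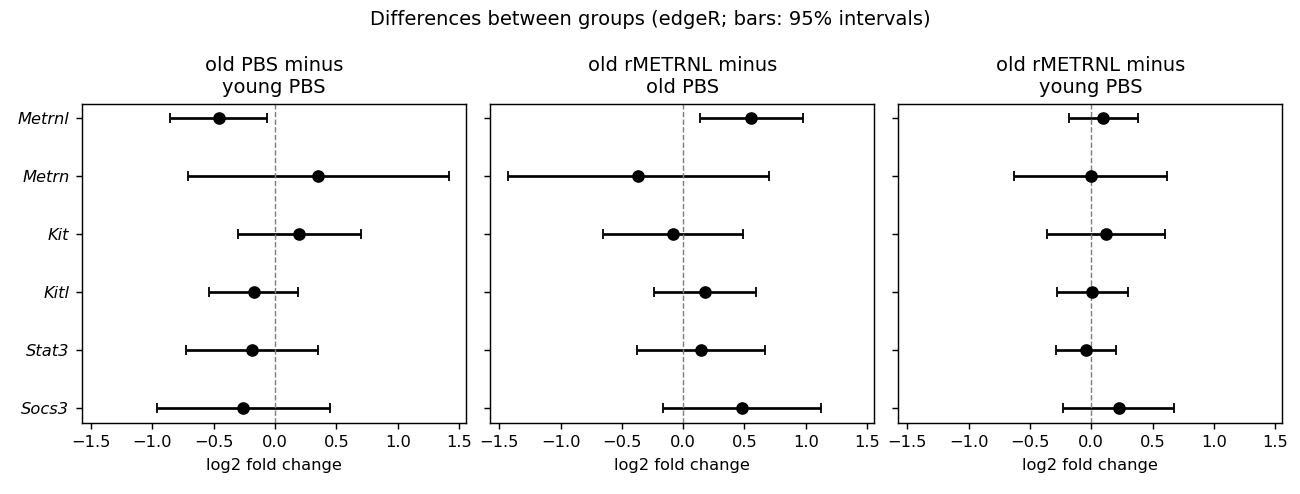
Log2 fold changes (horizontal axis) of the 6 genes in the 3 comparisons with 95% intervals from edgeR. The intervals of Metrnl leave out 0 in both comparisons with old PBS (-0.86 to -0.063 and 0.14 to 0.97), before adjustment over all genes, and every other interval holds 0.

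The upstream part of the pathway was low or flat. Of 10 genes of gp130 family ligands, IL-10 and their partners, Il6, Osm, Il11, Cntf and Il27 had at most 21 counts in any library and were not tested. The cytokine gene Lif had 7 to 31 counts and a log2 fold change of -0.68 between old rMETRNL and old PBS (edgeR adjusted p = 0.735). Il10, the gene of an inhibitory cytokine, had 12, 13 and 10 counts in young PBS, 3, 5 and 6 in old PBS and 12, 19 and 6 in old rMETRNL. Its log2 fold change between old PBS and young PBS was -1.30 (edgeR adjusted p = 0.767), on counts close to the floor. The list medians were -0.15 between old PBS and young PBS over 5 genes tested, -0.18 between old rMETRNL and old PBS over 4 and -0.13 between old rMETRNL and young PBS over 5. All 8 receptor genes were tested, with medians of -0.034, -0.042 and -0.023, and Il6st, which codes for gp130, stood at 213 ± 31.1, 213 ± 35.4 and 207 ± 6.59 CPM in young PBS, old PBS and old rMETRNL (SD, n = 3 each). None of either list passed edgeR's threshold.

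The 10 genes of JAK kinases and the other STAT proteins had medians of -0.12, 0.11 and -0.060 in the same order of comparisons. Stat6, which serves IL-4 and IL-13, stood at 55.0 ± 4.07 CPM in young PBS, 45.5 ± 3.58 in old PBS and 57.2 ± 2.96 in old rMETRNL (SD, n = 3 each). Its old PBS libraries lay below the other 6 libraries, as did those of 3.09% of the 16124 genes kept. Its log2 fold change was -0.27 between old PBS and young PBS (edgeR adjusted p = 0.959) and 0.33 between old rMETRNL and old PBS (edgeR adjusted p = 0.634). Stat4, which serves IL-12, had 2 to 22 counts and differed by -1.21 between old rMETRNL and old PBS (edgeR adjusted p = 0.604). Among the 15 inhibitors of the pathway other than Socs3, the medians were 0.0035, 0.042 and -0.013. Cish, an inhibitor induced by STAT5, was at 2.46, 7.52 and 11.5 CPM in old rMETRNL 1, 2 and 3 and at 2.95 to 4.57 CPM in young PBS, and its log2 fold change of 0.98 (edgeR adjusted p = 1.0) rested on 2 of 3 libraries. Socs1, a relative of Socs3, had log2 fold changes of -0.80 between old PBS and young PBS (edgeR adjusted p = 0.953) and of 0.50 between old rMETRNL and old PBS (edgeR adjusted p = 0.778).

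Of 20 known targets of STAT3 other than Socs3, 19 were tested and none passed edgeR's threshold. Their medians were -0.054, 0.089 and 0.064, against 0.014, -0.0056 and 0.00089 over all genes tested. Timp1, an inhibitor of matrix metalloproteinases, had the lowest p of the list between old rMETRNL and old PBS. It stood at 11.3, 11.3 and 11.1 CPM in young PBS 1, 2 and 3, at 3.70, 9.91 and 5.41 CPM in old PBS 2, 3 and 4, and at 13.0, 14.9 and 13.0 CPM in old rMETRNL 1, 2 and 3. Its old PBS libraries lay below all others, as did those of 3.09% of the 16124 genes kept. The log2 fold change was -0.81 between old PBS and young PBS (edgeR adjusted p = 0.788) and 1.08 between old rMETRNL and old PBS (edgeR adjusted p = 0.391). Timp1 is also a gene of fibroblasts. The sum of the fibro-adipogenic progenitor list, though not each of its genes, was likewise lower in the 3 old PBS libraries than in all others. Cebpb, a transcription factor of the acute phase, ran the other way, with 46.8 ± 12.6 CPM in old PBS and 32.9 ± 2.27 in old rMETRNL (SD, n = 3 each) and a log2 fold change of -0.51 (edgeR adjusted p = 0.564). Lcn2, which binds iron carriers of bacteria, had a log2 fold change of 2.16 between old PBS and young PBS (edgeR adjusted p = 0.737), with 16, 69 and 101 counts against 12, 27 and 2. Igf1, a growth factor gene, was at 95.8, 145 and 53.8 CPM in old PBS 2, 3 and 4 and at 186, 137 and 129 CPM in old rMETRNL 1, 2 and 3. Like Stat3 and Socs3, it was highest in library 3 within old PBS.

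The 17 genes of KIT signalling were all tested, with medians of -0.10, 0.17 and 0.058, and 12 had a fold change above 0 between old rMETRNL and old PBS. Fyn, a Src family kinase, had the lowest p of the list there, at 32.3 ± 5.87 CPM in old PBS and 43.4 ± 4.47 in old rMETRNL (SD, n = 3 each; log2 fold change 0.42, edgeR adjusted p = 0.604). Dok1, an adaptor that damps the signal, differed by 0.49 (edgeR adjusted p = 0.663). The phosphatase gene Ptpn6, which is counted among the inhibitors above and acts on KIT too, differed by 0.53 (edgeR adjusted p = 0.660).

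**Figure D4:**
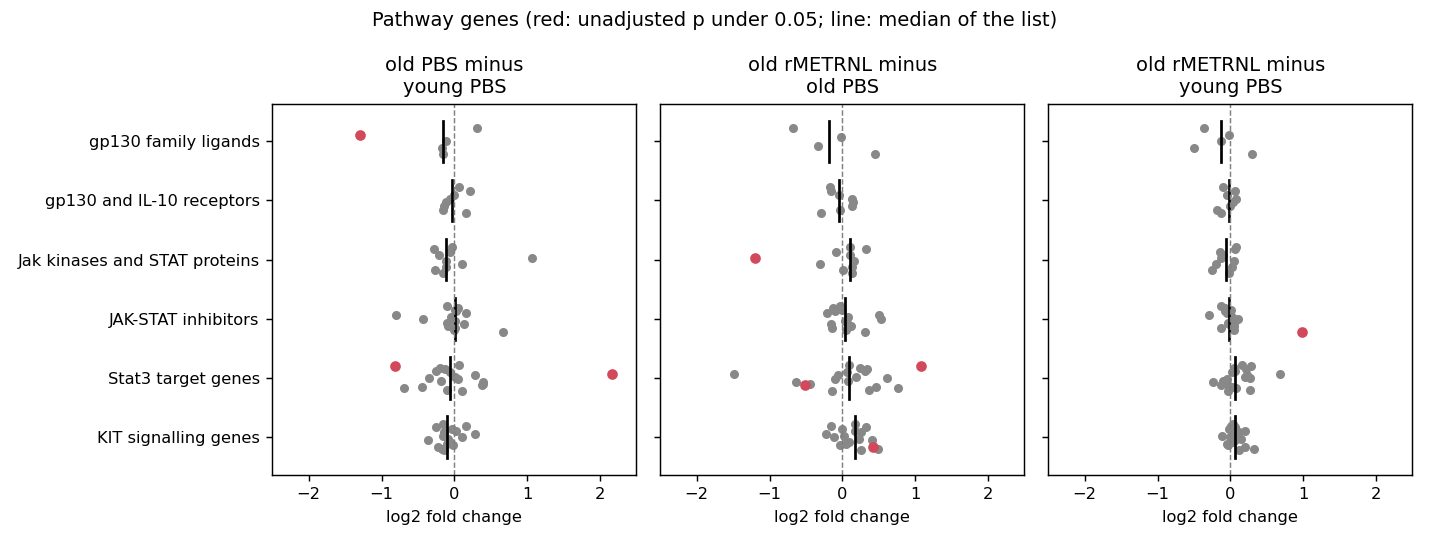
Log2 fold changes (horizontal axis) of the pathway genes tested, by list, in the 3 comparisons; each point is a gene, red where the unadjusted edgeR p is under 0.05, and the black lines are list medians. The medians lie between -0.18 and 0.17, and the red points number 3, 4 and 1.

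Over the 6 lists together, edgeR called 0 of 74, 0 of 73 and 0 of 74 genes tested, and 3, 4 and 1 had an unadjusted p under 0.05, near or below the shares of all genes given above. DESeq2, which called 1.41%, 1.84% and 0% of all genes, called 1, 1 and 0 of the list genes. The gene it called was Fgg, a fibrinogen chain made by the liver that edgeR's filter had left out, with counts of 33, 10 and 11 in old PBS and of 0 elsewhere, where the liver list was also low. Old PBS 3 mattered most for these counts. Without it, 9 of 75 pathway genes passed between old rMETRNL and old PBS (12%, against 9.76% of all genes), and they were Bcl3, Clcf1, Fgg, Fyn, Igf1, Inpp5d, Pim1, Ptpn6 and Timp1. Between old PBS and young PBS, 2 of 75 passed without it (2.67%, against 2.52% of all genes), Fgg and Timp1. None of the 6 main genes was among the calls in either case.

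**Figure D5:**
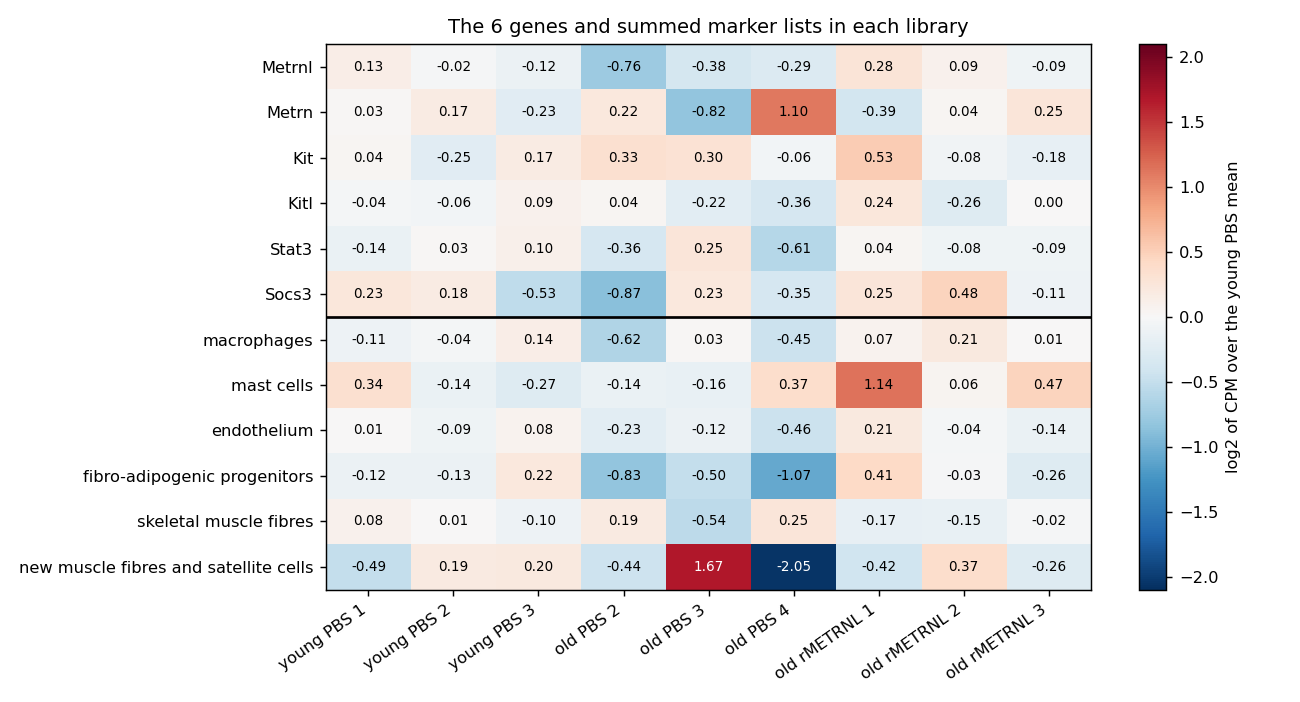
Log2 of CPM over the young PBS mean for the 6 genes (above the line) and for summed marker lists (below it) in each library, with the value in each cell and the colour scale from -2.1 to 2.1. Old PBS 2 and 4 are low in Metrnl, Stat3, Socs3 and macrophage markers, while old PBS 3 is low in Metrnl (-0.38) but not in Stat3 (0.25) or Socs3 (0.23), and has the highest sum of new muscle fibre markers.

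The map of libraries shows that the old PBS group is not uniform for these genes. Metrnl lay below the young PBS mean by -0.76, -0.38 and -0.29 on the log2 scale in old PBS 2, 3 and 4. Stat3 lay at -0.36, 0.25 and -0.61, Socs3 at -0.87, 0.23 and -0.35 and the macrophage list at -0.62, 0.027 and -0.45. Metrnl was therefore the one of the 6 that was on the same side in all 3 old PBS libraries and outside the range of both other groups. Of the 16124 genes kept, 3.09% were likewise lower in old PBS than in all the other libraries.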

How the data were processed

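RNA-seq was made from 3 groups of 3 libraries with the NEBNext Ultra kit and paired-end reads. The authors deposited raw counts per Ensembl gene, 1 column a library, not normalized. Per the labels, their processing notes name STAR, featureCounts and mm9, without versions. The paper names DESeq2. The table holds no coordinates, and of its 54532 identifiers 54495 match a GRCm38 annotation (GENCODE vM21), from which the coordinates and exon lengths printed here come. Promoter windows are RefSeq's. All 6 genes matched.

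Pairs of groups were compared (6 libraries) in R 4.3.3 by edgeR 4.0.16 (filterByExpr, TMM, glmQLFit and glmQLFTest), with Benjamini-Hochberg adjustment over all genes tested and a threshold of 0.05. CPM use TMM factors from all 9 libraries, and FPKM are CPM per kilobase of merged exons. Correlations use log2 CPM with a prior count of 2. DESeq2 1.42.0, its size factors, no filter, at least 10 counts in every library, all 9 libraries in 1 fit, a replicate block and each library left out were alternatives. On simulated data, edgeR called 100 of 100 genes changed 4 times in each comparison, and 49, 46 and 57 of 100 changed 2 times between old PBS and young PBS (15560 genes), old rMETRNL and old PBS (15682) and old rMETRNL and young PBS (15396). The simulation gave all genes and libraries the same spread (dispersion 0.05), so it does not hold the wider spread of old PBS. Only genes with a mean above 5 CPM were changed in it, which leaves out the level of Metrn. The depth of each library is given in total counts, and the floor of 3 counts covers counting error only, whereas edgeR's intervals include the spread between libraries. The 6 genes, the pathway and marker lists and the alternatives were chosen with earlier results of these data known. The pathway genes named are those with the highest mean CPM or the lowest p of their list in a comparison. Fgg, and the genes named as passing without old PBS 3, were named after their values were seen. No library was left out of the main values.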

Additional observations from a re-analysis of the deposited data

How the results depend on the processing

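None of the 6 genes passed the threshold in any comparison under any alternative run. Metrnl kept its direction in all of them. With each library left out in turn it ran from -0.55 to -0.33 between old PBS and young PBS, from 0.43 to 0.64 between old rMETRNL and old PBS and from 0.0015 to 0.19 between old rMETRNL and young PBS (log2). Its lowest edgeR adjusted p was 0.0810, between old rMETRNL and old PBS without old PBS 3, where 9.76% of all genes passed. Pathway genes called between old PBS and young PBS numbered 1 by DESeq2, 1 with no filter and 0 to 2 with 1 library left out. With no filter this was 1.25% of those tested, against 1.23% of all genes. Between old rMETRNL and old PBS they numbered 1 by DESeq2, 3 with no filter and 0 to 9 with 1 library left out. The 3 were Fgg, Lcn2 and Timp1 (the last at 1.10), 3.75% of those tested, against 2.55% of all genes. Between old rMETRNL and young PBS 1 was called with no filter (Cish, at 0.99), 1.27% against 0.467% of all genes. Shares of all genes for DESeq2 and without old PBS 3 are given above. The cause of these changes was not tested.

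Small fold changes turned sign. With 1 library left out, Metrn ran from -0.23 to 0.72, from -0.73 to 0.21 and from -0.16 to 0.15 in the 3 comparisons, in the same order. Between old rMETRNL and old PBS, Kit ran from -0.33 to 0.048 and Stat3 from -0.039 to 0.44. Between old rMETRNL and young PBS, Kit ran from -0.13 to 0.26, Kitl from -0.12 to 0.13 and Stat3 from -0.11 to 0.0099. The log2 ratio of Metrnl to macrophage markers ran from -0.27 to 0.014, from -0.017 to 0.26 and from -0.14 to 0.12, and with the mean of log2 marker counts it was 0.014 between old rMETRNL and young PBS.

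Same-numbered libraries of young PBS and old rMETRNL correlated at 0.023, -0.051 and -0.18 in their deviations from the group means, below the level taken as pairing. With old PBS 2 numbers are shared, and the correlations were 0.11 and 0.41 with young PBS and -0.049 and -0.32 with old rMETRNL. Old PBS libraries paired with unlike numbers gave -0.44 to 0.38 with young PBS and -0.20 to 0.23 with old rMETRNL. The labels do not say that a number marks anything shared, so the libraries were taken as unpaired. With the replicate number as a block, which uses 2 pairs in comparisons with old PBS, no member was called. Metrn then gave -0.26 between old PBS and young PBS, and between old rMETRNL and old PBS Metrn gave 0.44, Kitl -0.045 and Stat3 -0.040. Kitl gave -0.0043 between old rMETRNL and young PBS.

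Depth limits Metrn most, at 30 to 79 counts a library. In simulated data 46 of 100 genes changed 2 times were found between old rMETRNL and old PBS. That share holds for genes above 5 CPM with the same spread in every library. It covers neither Metrn nor the wider spread of old PBS, which this comparison holds. Changes smaller than 2 times were not simulated.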

Other observations

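Between old rMETRNL and young PBS, 8 of the 9 mast cell markers tested had fold changes above 0 (log2, median 0.54), and none passed edgeR's threshold. The protease gene Mcpt4 stood at 12.5 ± 3.08 CPM in young PBS, 13.0 ± 4.65 in old PBS and 20.5 ± 6.46 in old rMETRNL (SD, n = 3 each), with a log2 fold change of 0.71 between old rMETRNL and young PBS (edgeR adjusted p = 1.0). Its counts were 513, 261 and 423 in old rMETRNL 1, 2 and 3. Kit itself differed by 0.12 in the same comparison.

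Keratinocyte markers summed to 134 CPM in young PBS 2 and to 13.4 to 24.3 CPM in the other 8 libraries. Blood markers summed to 981 CPM in old PBS 4 and 843 CPM in old rMETRNL 2, against 51.7 to 250 CPM in the rest. Young PBS 2 had the lowest Kit, old PBS 4 had the highest Metrn and the lowest Stat3 and Kitl, and old rMETRNL 2 the highest Socs3. Old PBS 4 also had the most Mobp, at 41.8 CPM. Within old PBS, Metrn and Mobp were both highest in library 4 and lowest in library 3. Where Mobp was at 0, in young PBS and old rMETRNL, Metrn stood at 1.77 to 2.76 CPM. The part of these markers in those levels was not tested.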
